A study of Camelina sativa with 12 samples.

Results

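The genes described are 4 photosynthesis genes and the chlorophyllase 1 gene of *Camelina sativa* shoots under salt, 5 of the 89418 genes in the count table. They are Csa08g050560 (photosystem I subunit D-1), Csa14g037480 (chlorophyll A/B binding protein 1), Csa06g036870 (photosystem II light harvesting complex gene B1B2), Csa01g001010 (PsbQ-like 1) and Csa17g025490 (chlorophyllase 1). All 5 had enough reads to be tested. They are the genes that the study names under photosynthesis, and the study found them in these same libraries. The 4 photosynthesis genes were listed for plants treated with *P. migulae* 8R6 against the control, and chlorophyllase 1 for the *35S::acdS* line against the control. Their values in those comparisons chose them and are therefore given as a description, without a test. Gene names are those of the study's annotation tables, made from *Arabidopsis thaliana* orthologs.

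Photosystems I and II are the chlorophyll-protein complexes of the thylakoid membrane that turn light into electron flow, and light harvesting proteins are the antenna that feeds them. Photosynthesis transcripts are among the most abundant in green tissue and commonly decline when leaves are stressed or senesce, while chlorophyll itself is taken apart by a separate set of enzymes. Subunit D-1 sits on the stromal face of photosystem I, where ferredoxin docks. Csa14g037480 and Csa06g036870 both belong to the Lhcb1 family, the main protein of the photosystem II antenna. Csa01g001010 is filed under photosystem II, but its annotation also names it a lumenal subunit of the photosynthetic NDH complex, which in *A. thaliana* carries electrons around photosystem I and is no part of the light harvesting complex. Chlorophyllase removes the phytol tail of chlorophyll, and the *A. thaliana* gene CLH1 is known for its induction by coronatine and jasmonate.

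RNA came from whole shoots of 4 groups of cultivar DH55, with 3 biological replicates a group and 12 libraries in all. Every plant was 28 days old and had received NaCl solution (192 mM, 15 dS m-1) for 21 days, starting 7 days after sowing, so that no unsalted plants are among the libraries. The control was DH55 given buffer only. In the 8R6 group the soil of DH55 plants had been inoculated with *Pseudomonas migulae* 8R6, a root endophyte that makes ACC deaminase, the enzyme that breaks down the ethylene precursor ACC. The *35S::acdS* and *rolD::acdS* lines carry the bacterial ACC deaminase gene *acdS* from *Pseudomonas* sp. UW4 behind the constitutive *35S* promoter or the mainly root-active *rolD* promoter. The paper states that soil got either bacteria or buffer, and does not name these lines there. Each is a single-copy line, so that an effect of the gene and of the individual line cannot be told apart.

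Library totals lay between 10520627 and 23587748 counts, and 56932 genes were tested. Levels are CPM, the counts of a gene relative to the total of its library after TMM scaling, and can be compared between libraries but not between genes, because gene lengths were not used here. Across genes, 8R6 replicate 1 correlated with the other 8R6 libraries at 0.959 and 0.971, below its median of 0.975 with other groups, and control replicate 2 with the other controls at 0.957 and 0.959. Values without these libraries are given where they change a call. *C. sativa* has 3 closely related sub-genomes, and how reads that fit several gene copies were counted is not given in the sources used here. The counts of the Lhcb1 genes, a family of near-identical copies, are uncertain for that reason. Further copies of the genes described could not be identified here, so each level is that of a single gene identifier, not of its family. In bulk RNA, fewer green cells and less RNA per cell cannot be told apart. Apart from the photosynthesis genes, which had counts in all 12 libraries, no tissue marker could be checked, since the identifiers come without names outside the study's tables.

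Csa08g050560, the photosystem I gene, was highest with *P. migulae* 8R6. Its level was 27.5, 32.0 and 31.0 CPM in control replicates 1 to 3, and 68.5, 75.9 and 73.4 CPM with *P. migulae* 8R6. It was 33.1, 32.8 and 29.9 CPM in the *35S::acdS* line and 35.8, 49.6 and 43.2 CPM in the *rolD::acdS* line. The lowest 8R6 library thus lay above every other library, the *rolD::acdS* libraries lay between the 8R6 group and the rest, and the *35S::acdS* libraries overlapped the control. The group means were 30.2 ± 2.34 CPM in the control, 31.9 ± 1.77 CPM in the *35S::acdS* line, 42.9 ± 6.95 CPM in the *rolD::acdS* line and 72.6 ± 3.77 CPM with *P. migulae* 8R6 (SD, n = 3 each). Counting error alone would give a coefficient of variation of 2.69% in the 8R6 group, where 5.19% was seen, and of 4.33% in the *rolD::acdS* line, where 16.2% was seen. Against the control, which chose this gene, the 8R6 level was 2.41-fold higher (log2 fold change 1.27, standard error 0.13), and 100 of the genes tested had a larger log2 fold change in that comparison.

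**Figure D1:**
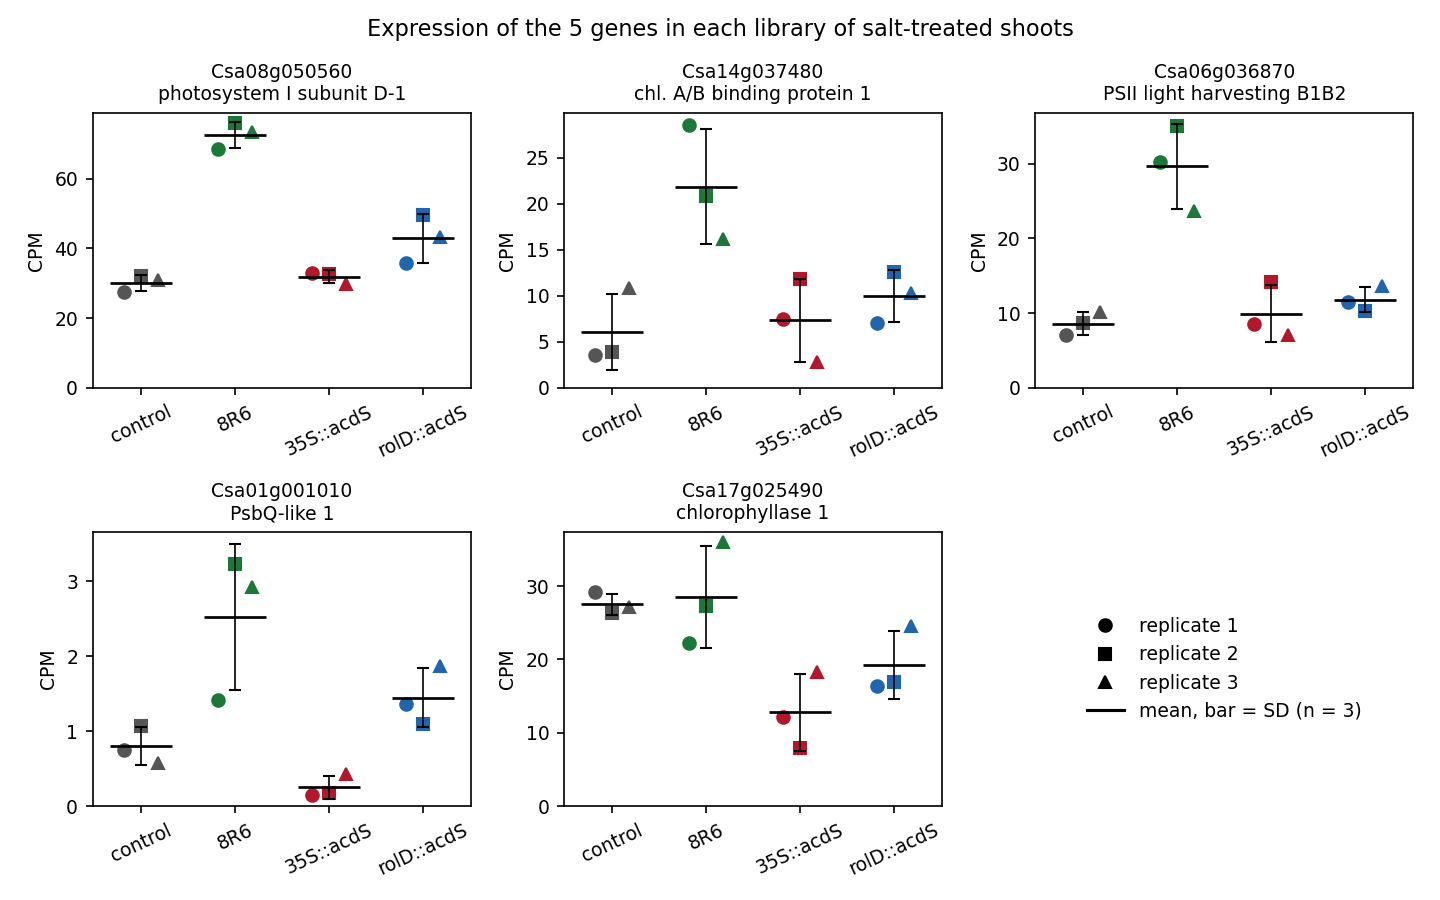
Level of each of the 5 genes in CPM (vertical axis, from 0, with its own scale in each panel) in the 4 groups of salt-treated shoots. Symbols are single libraries, lines are means and bars are SD (n = 3); the 8R6 libraries of Csa08g050560 lie between 68.5 and 75.9 CPM, above all others, and the *35S::acdS* libraries of Csa17g025490 between 7.93 and 18.3 CPM.

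Both Lhcb1 genes were also highest with *P. migulae* 8R6, with a wider spread between libraries. Csa06g036870 had 7.04, 8.65 and 10.1 CPM in the control, 30.3, 35.0 and 23.6 CPM with *P. migulae* 8R6, 8.53, 14.2 and 7.01 CPM in the *35S::acdS* line, and 11.5, 10.2 and 13.6 CPM in the *rolD::acdS* line. All 8R6 libraries were above the other 9, and every *rolD::acdS* library was above every control library, though by little. The other Lhcb1 gene, Csa14g037480, had 3.52, 3.85 and 10.8 CPM in the control, 28.5, 20.8 and 16.2 CPM with *P. migulae* 8R6, 7.46, 11.8 and 2.77 CPM in the *35S::acdS* line, and 7.06, 12.6 and 10.3 CPM in the *rolD::acdS* line. Again the 8R6 libraries lay above all others, while the remaining groups overlapped each other. Control replicate 3, at 10.8 CPM, stood well above the other controls, and the coefficient of variation in the control was 67.9% where counting error gives 9.19%. The means with *P. migulae* 8R6 and in the control were 29.6 ± 5.69 and 8.60 ± 1.53 CPM for Csa06g036870 (SD, n = 3), a log2 fold change of 1.78 (standard error 0.24). For Csa14g037480 they were 21.8 ± 6.26 and 6.06 ± 4.11 CPM (SD, n = 3), a log2 fold change of 1.81 (standard error 0.48) that moved between 1.55 and 2.56 as single libraries were left out. The highest value was reached without control replicate 3, which thus shifted the fold of this gene more than any other library did.

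Csa01g001010, the PsbQ-like gene, was scarce throughout and had its lowest level in the *35S::acdS* line, not in the control. It had 11, 17 and 14 counts in the control (0.745, 1.07 and 0.582 CPM), 33, 50 and 60 counts with *P. migulae* 8R6 (1.41, 3.23 and 2.92 CPM), 2, 4 and 5 counts in the *35S::acdS* line (0.154, 0.178 and 0.433 CPM), and 32, 12 and 19 counts in the *rolD::acdS* line (1.37, 1.09 and 1.87 CPM). The *35S::acdS* libraries were below all others, the *rolD::acdS* libraries were just above the control (1.09 against at most 1.07 CPM), and the 8R6 and *rolD::acdS* libraries overlapped. Counting error alone would give a coefficient of variation of 54.2% in the *35S::acdS* line, where 60.6% was seen, and of 27.2% in the control, where 31.3% was seen. In the *rolD::acdS* line it would give 23.4% against 27.2% seen, and with *P. migulae* 8R6 14.7% against 38.5%. The mean was 2.52 ± 0.97 CPM with *P. migulae* 8R6 and 0.800 ± 0.25 CPM in the control (SD, n = 3), a log2 fold change of 1.66 (standard error 0.38).

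Chlorophyllase 1, Csa17g025490, was lowest in the *35S::acdS* line, as Csa01g001010 was. It had 29.1, 26.3 and 27.1 CPM in the control, 22.2, 27.2 and 36.0 CPM with *P. migulae* 8R6, 12.2, 7.93 and 18.3 CPM in the *35S::acdS* line, and 16.3, 16.9 and 24.6 CPM in the *rolD::acdS* line. The control and 8R6 groups overlapped, both *acdS* lines lay below every control library, and the *acdS* lines overlapped each other. The means were 12.8 ± 5.23 CPM in the *35S::acdS* line and 27.5 ± 1.47 CPM in the control (SD, n = 3). This is the comparison in which the gene was listed, with 2.17-fold less chlorophyllase 1 RNA in the *35S::acdS* line (log2 fold change -1.12, standard error 0.27).

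Whether the photosynthesis genes also differed in the *acdS* lines was then examined. A gene was called at an adjusted p of 0.05 or less (quasi-likelihood test of edgeR, adjusted by Benjamini-Hochberg across the 56932 genes) together with an absolute log2 fold change above 1. In the *35S::acdS* line against the control, 0 of the 4 photosynthesis genes were called, and 0% of all genes were. Of the 4, 1 had an unadjusted p under 0.05, as 7.77% of all genes did. DESeq2, limma and edgeR's exact test at a biological coefficient of variation (BCV) of 0.2 called 0 of the 4 as well. Over all genes they called 0.0347%, 0% and 1.82%. The log2 fold change was 0.08 for Csa08g050560 (95% interval -0.19 to 0.36), 0.22 for Csa06g036870 (-0.31 to 0.75) and 0.28 for Csa14g037480 (-0.78 to 1.34). Csa01g001010 differed by -1.69 ± 0.53 on the log2 scale (standard error; unadjusted p = 0.00752, adjusted p = 0.633 with edgeR), and by -0.79 with limma on log2(CPM + 0.5), a scale that understates changes of scarce genes. Its 3 *35S::acdS* libraries were all below the 3 controls, as were those of 7.32% of the genes tested. Without *35S::acdS* replicate 2 the log2 fold changes of Csa06g036870 and Csa14g037480 were -0.16 and -0.28, and without control replicate 3 that of Csa14g037480 was 1.03. The control libraries here are those that chose the 4 genes.

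In the *rolD::acdS* line against the control, 0 of the 5 genes were called by edgeR's quasi-likelihood test, DESeq2, limma or the exact test at a BCV of 0.2, 0% of all genes were called by the first, and 1 of the 5 had an unadjusted p under 0.05, where 8.35% of all genes had. That gene was Csa08g050560, with a log2 fold change of 0.50 (95% interval 0.23 to 0.78, adjusted p = 0.346). The other photosynthesis genes had log2 fold changes of 0.44 (Csa06g036870), 0.66 (Csa14g037480) and 0.86 (Csa01g001010), and chlorophyllase 1 had -0.52 (95% interval -1.09 to 0.05). Without control replicate 3 that of Csa14g037480 was 1.41 (adjusted p = 0.918). The *rolD::acdS* libraries lay wholly above the control for 3 of the 5 genes and wholly below it for 1, which compares with 6.43% and 7.23% of the genes tested. The same control libraries served to choose all 5 genes, so the side on which these values fall is not independent of that choice.

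**Figure D2:**
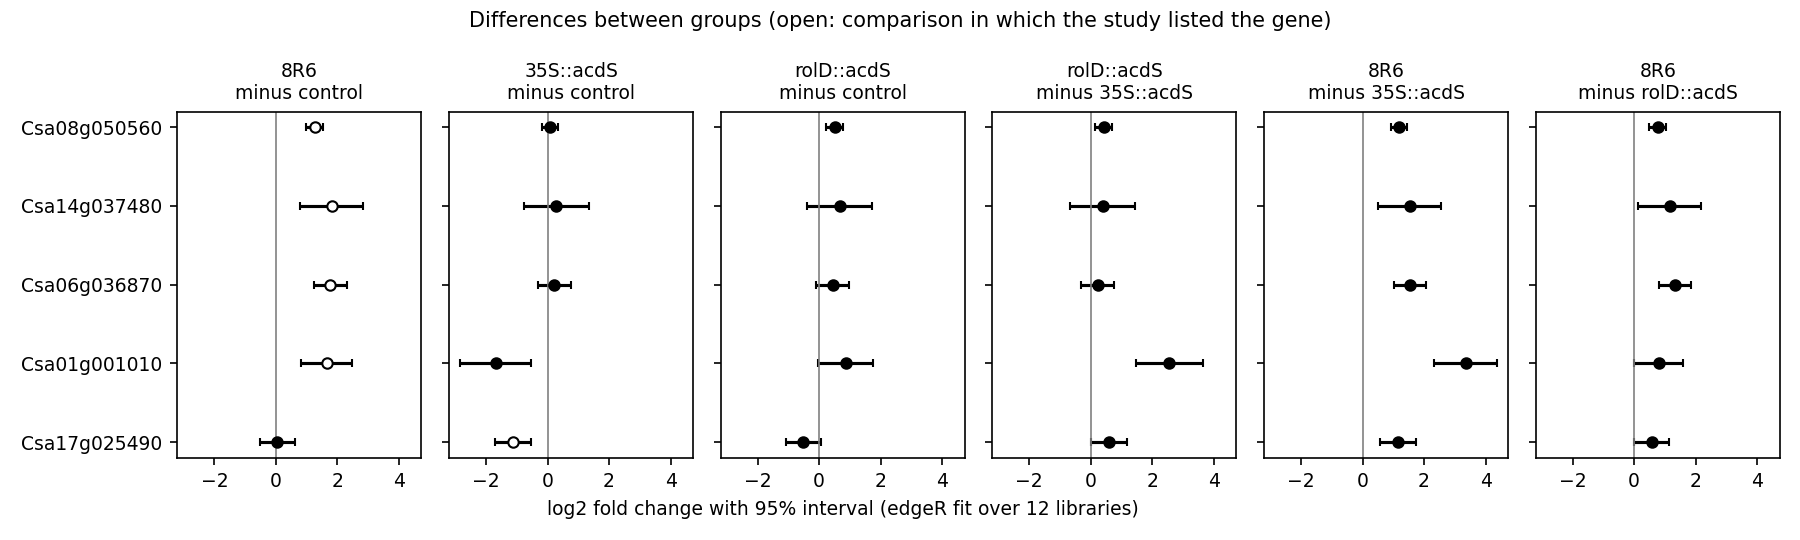
Log2 fold change of each gene (horizontal axis; points with 95% intervals from the edgeR fit over 12 libraries) in the 6 comparisons between groups, first-named group minus the second. Open circles are the comparisons in which the study listed the gene; Csa01g001010 has the largest difference shown, 3.35 for 8R6 minus *35S::acdS*.

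A direct comparison of the *acdS* lines, *rolD::acdS* minus *35S::acdS*, uses none of the libraries that chose the 4 photosynthesis genes. The quasi-likelihood test of edgeR called 0 of the 5 genes, and 0% of all genes. An unadjusted p under 0.05 was found for 3 of the 5 genes, against 12.9% of all genes tested. Limma called 0 of the 5, and 0.00176% of all genes. DESeq2 called 0 of the 4 genes to which it gave an adjusted p, and 0.222% of all such genes. It gave none to Csa01g001010. The difference was widest for Csa01g001010, with 1.44 ± 0.39 CPM in the *rolD::acdS* line and 0.255 ± 0.15 CPM in the *35S::acdS* line (SD, n = 3). On the log2 scale it was 2.55 ± 0.50 (standard error; unadjusted p = 0.000257, adjusted p = 0.327 with edgeR), and 18 genes had a larger one. With limma on log2(CPM + 0.5) it was 1.36. The exact test with the BCV fixed at 0.2 called this gene alone among the 5, and 2.41% of all genes. Csa08g050560 was 1.34-fold higher in the *rolD::acdS* line (log2 fold change 0.42, 95% interval 0.15 to 0.70, adjusted p = 0.327). For these 2 genes every *rolD::acdS* library was above every *35S::acdS* library, as for 9.95% of the genes tested. The Lhcb1 genes overlapped between the lines, with log2 fold changes of 0.22 (95% interval -0.31 to 0.75) for Csa06g036870 and 0.38 (-0.68 to 1.44) for Csa14g037480. Chlorophyllase 1 had a log2 fold change of 0.60 (95% interval 0.01 to 1.19, adjusted p = 0.385), in a comparison that includes the *35S::acdS* libraries for which it was listed.

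Set against the *35S::acdS* line, all 5 genes were higher in every 8R6 library than in any *35S::acdS* library, as 12.8% of the genes tested were. Of the 5 genes, 3 were called by edgeR's quasi-likelihood test, where 0.0509% of all genes (29) were. They were Csa08g050560 (log2 fold change 1.19, standard error 0.13, adjusted p = 0.0254), Csa06g036870 (1.55, standard error 0.24, adjusted p = 0.0457) and Csa01g001010 (3.35, standard error 0.47, adjusted p = 0.0309). Csa01g001010 was 10.2-fold higher, a ratio that rests on 11 counts in the 3 *35S::acdS* libraries together. With limma on log2(CPM + 0.5) its difference was 1.96 (adjusted p = 0.0365). Limma called 2 of the 5 genes and 0.0299% of all genes, and Csa06g036870 was not among the 2 (adjusted p = 0.0630). DESeq2 called 4 of the 5, and 1.86% of all genes. The other Lhcb1 gene, Csa14g037480, had a log2 fold change of 1.53 (95% interval 0.50 to 2.56, adjusted p = 0.116), and chlorophyllase 1 had 1.17 (95% interval 0.58 to 1.75, adjusted p = 0.0666). The 8R6 libraries chose the photosynthesis genes and the *35S::acdS* libraries chose chlorophyllase 1, so these calls are not independent of the choice.

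The calls between the 8R6 group and *35S::acdS* changed with the libraries and the model, while the fold change of the photosystem I gene moved little. Leaving out 8R6 replicate 2 or 3, or *35S::acdS* replicate 1 or 2, gave 0 of 5 genes, and 0 of all genes tested. Leaving out *rolD::acdS* replicate 1 or control replicate 1 gave 1 of the 5, with 6 and 12 calls over all genes. Without 8R6 replicate 1 there were 4, with 873 over all genes, and without *35S::acdS* replicate 3 there were also 4, with 219. Without *rolD::acdS* replicate 3 there were 2, with 25 over all genes. Over all these fits the log2 fold change of Csa08g050560 stayed between 1.15 and 1.23, while that of Csa06g036870 ran from 1.37 to 1.93. Deviations of same-numbered libraries of these groups from their group means correlated weakly (0.224, 0.196 and 0.223). A block for the replicate number can take this into account. The labels do not say that a replicate number marks a shared batch, and the block was tried here because of these same correlations. The 6 libraries of this comparison with that block, a fit added after the data had been examined, gave calls for all 5 genes with adjusted p-values from 0.00574 (Csa06g036870) to 0.0250 (Csa14g037480) in edgeR, and called 2.63% of the genes tested. The same 6 libraries without the block gave 0 of 5 and 0 of all genes, with adjusted p-values of the 5 from 0.0617 to 0.129. The exact test at a BCV of 0.2 called all 5, and 4.84% of all genes.

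**Figure D3:**
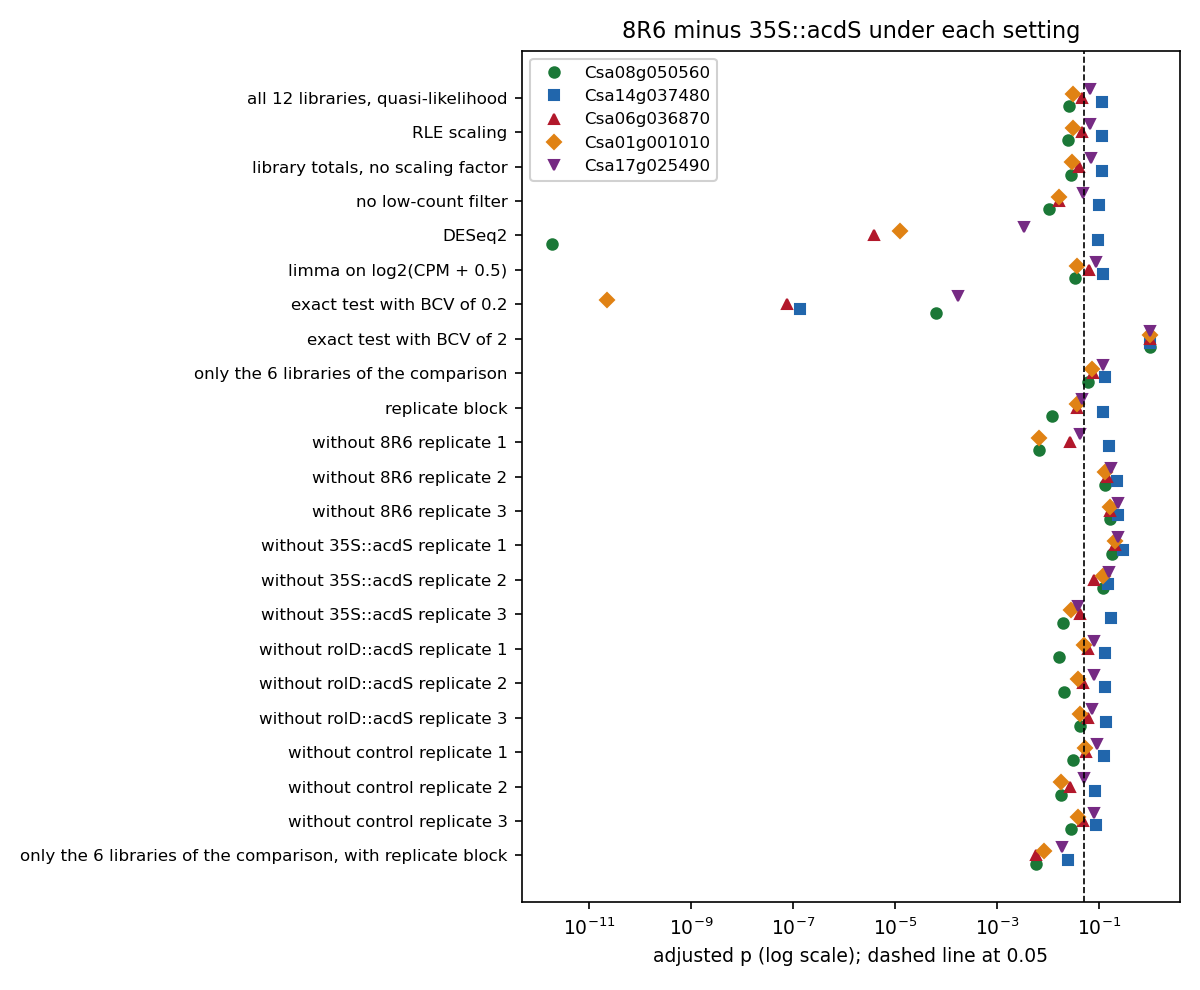
Adjusted p of each of the 5 genes (horizontal axis, log scale, dashed line at 0.05) for *P. migulae* 8R6 minus the *35S::acdS* line, with 1 line for each way of fitting. In the uppermost line, all 12 libraries with edgeR's quasi-likelihood test, Csa08g050560, Csa06g036870 and Csa01g001010 lie left of 0.05, at 0.0254, 0.0457 and 0.0309.

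Against the *rolD::acdS* line, *P. migulae* 8R6 gave smaller differences, and 0 of the 5 genes were called by edgeR's quasi-likelihood test, where 0.0755% of all genes were. An unadjusted p under 0.05 was found for 4 of the 5 (12.5% of all genes). The 8R6 libraries chose the 4 photosynthesis genes, so their values here are not independent of that choice. Csa06g036870 differed by 1.33 ± 0.24 on the log2 scale (standard error; adjusted p = 0.0559), and it was called by DESeq2, which called 0.833% of all genes. The exact test at a BCV of 0.2 called both Lhcb1 genes and 3.08% of all genes, while limma called 0 of the 5 and 0.0141% of all genes. Leaving out *35S::acdS* replicate 3 or control replicate 2, neither of which is part of this comparison, also gave a call for this gene (adjusted p = 0.0475 and 0.0469). Csa08g050560 was 1.70-fold higher with *P. migulae* 8R6 (log2 fold change 0.76, standard error 0.13, adjusted p = 0.0504), a difference too small for the fold threshold. Csa14g037480 had 1.15 (adjusted p = 0.342) and Csa01g001010 0.80 (adjusted p = 0.395). For 3 of the 5 genes, namely Csa08g050560 and both Lhcb1 genes, the 8R6 libraries lay wholly above those of the *rolD::acdS* line, as for 8.56% of the genes tested. Chlorophyllase 1, for which this comparison shares no library with the one that listed it, had 28.5 ± 6.97 CPM with *P. migulae* 8R6 and 19.3 ± 4.62 CPM in the *rolD::acdS* line (SD, n = 3), a log2 fold change of 0.57 (95% interval -0.0021 to 1.14, adjusted p = 0.400). The libraries of the groups overlapped.

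Chlorophyllase 1 was also compared between *P. migulae* 8R6 and the control. That comparison did not list this gene, but it shares the control libraries with the one that did. It was not called by edgeR's quasi-likelihood test, like all but 0.00176% of the genes tested. DESeq2, limma and the exact test at a BCV of 0.2 did not call it either, and called 0.417%, 0% and 1.54% of all genes. Its log2 fold change was 0.05 (95% interval -0.51 to 0.61, adjusted p = 0.969 with edgeR, unadjusted p = 0.848). Without 8R6 replicate 3 the log2 fold change was -0.16. In that same comparison the 4 photosynthesis genes lay wholly above the control, as 7.43% of all genes did. Because this comparison chose them, their position is a description only, and the share is no test of it.

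The 5 genes did not vary as a single block from library to library. Because the 8R6 libraries stand apart for Csa08g050560 and both Lhcb1 genes, correlations were taken over the 9 libraries of the other groups and over the deviations of all 12 libraries from their group means, in log2(CPM + 0.5), as descriptions of libraries that share their scaling. The Lhcb1 genes went together in both, with r = 0.811 over the 9 libraries and 0.719 over the deviations. Whether reads shared between these family members have a part in this was not tested. Csa08g050560 had r = 0.546 with Csa06g036870 and 0.654 with Csa14g037480 over the 9 libraries, and 0.195 and 0.456 over the deviations. With Csa01g001010 its r was 0.523 over the 9 libraries and 0.024 over the deviations. Csa01g001010 went with neither Lhcb1 gene within groups, with r = -0.621 for Csa14g037480 and -0.125 for Csa06g036870 over the deviations. Over the 9 libraries these were 0.049 and 0.233. It went with chlorophyllase 1, at 0.604 over the 9 libraries and 0.630 over the deviations. Chlorophyllase 1 and the Lhcb1 genes correlated negatively over the deviations of all groups together, with r = -0.642 for Csa14g037480 and -0.625 for Csa06g036870. Over the 9 libraries these were -0.386 and -0.416. The opposite direction did not hold in every group. In the *rolD::acdS* line, chlorophyllase 1 and Csa06g036870 were both highest in replicate 3 (24.6 and 13.6 CPM).

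**Figure D4:**
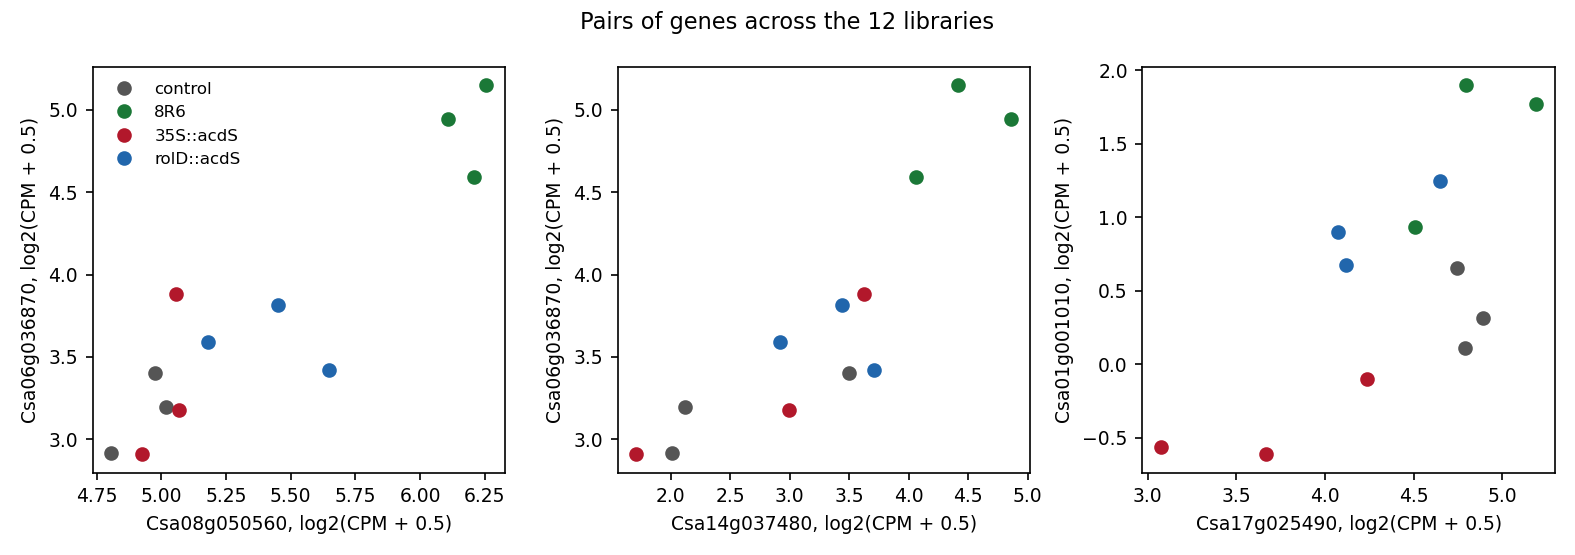
Levels of 3 pairs of genes in the 12 libraries, log2(CPM + 0.5) on both axes, coloured by group. The 8R6 libraries stand apart at the upper right in the first 2 panels; in the third, Csa01g001010 against chlorophyllase 1, the *35S::acdS* libraries lie at the lower left and r over the 9 libraries other than 8R6 is 0.604.

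The genes whose pattern over all 12 libraries was most like each of the 5 were looked up by Pearson correlation of log2(CPM + 0.5). Differences between the groups enter these correlations. Among the 1031 other tested genes that the study's tables name, the closest to Csa08g050560 was Csa06g036870 (r = 0.911) and the closest to Csa14g037480 was again Csa06g036870 (r = 0.884). Next after Csa06g036870 for the photosystem I gene came Csa03g022710, a mini zinc finger gene (r = 0.891). For Csa01g001010 the closest named gene was Csa10g014410, expansin B3, a cell wall loosening protein (r = 0.948), followed by Csa11g017670, oligopeptide transporter 5 (r = 0.892). For chlorophyllase 1 it was Csa09g075780, a gene of the Kunitz trypsin and protease inhibitor family (r = 0.887). The named genes were all selected by the study for a difference between these groups. Among all 56931 other genes tested, the closest were genes without a name in the sources used here, at r = 0.957 for Csa08g050560 (Csa04g029350), 0.940 for Csa14g037480, 0.940 for Csa06g036870, 0.958 for Csa01g001010 (Csa10g014390) and 0.942 for chlorophyllase 1. Between 5 and 15 genes had r above 0.9 with each of the genes other than Csa01g001010, which had more.

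The study's tables name only 2 further genes of the photosystems or of chlorophyll, both selected on these libraries. No call of these 2 genes is therefore independent of that choice. Csa00495s130 is annotated as the P700 apoprotein A2, which forms the core of photosystem I and is encoded in the chloroplast. The paper names both mRNA and total RNA library kits, and whether the reads come from chloroplast RNA was not tested. With *P. migulae* 8R6, Csa00495s130 went the opposite way from Csa08g050560. It had 8.87, 6.44 and 5.24 CPM in the control and 3.43, 2.26 and 3.11 CPM with *P. migulae* 8R6, or -1.20 ± 0.38 on the log2 scale (standard error; adjusted p = 0.338 with edgeR). Its levels were 2.45 to 6.77 CPM in the *35S::acdS* line and 4.63 to 10.8 CPM in the *rolD::acdS* line. The *rolD::acdS* libraries overlapped the control and lay above the 8R6 libraries (8R6 minus *rolD::acdS*, log2 fold change -1.37, adjusted p = 0.175). Csa11g045330, HCF109, a release factor for chloroplast translation in *A. thaliana*, was lowest in the *35S::acdS* line, as Csa01g001010 and chlorophyllase 1 were. It had 2.02 ± 0.90 CPM there and 4.39 ± 0.38 CPM in the control (SD, n = 3), or -1.13 ± 0.28 on the log2 scale (standard error; adjusted p = 0.621). With *P. migulae* 8R6 it had 5.40 ± 0.94 CPM and in the *rolD::acdS* line 4.59 ± 1.17 CPM (SD, n = 3). Its largest difference was that of 8R6 minus *35S::acdS*, with 1.43 ± 0.28 on the log2 scale (standard error; adjusted p = 0.0545) and no overlap between the libraries. With all 12 libraries, the filter and no block, edgeR's quasi-likelihood test called neither gene in any of the 6 comparisons. DESeq2 was run on these genes after the data had been examined. It called HCF109 between 8R6 and *35S::acdS* (adjusted p = 0.000505) and between the *acdS* lines (adjusted p = 0.0451). It called the P700 gene between 8R6 and *rolD::acdS* (adjusted p = 0.0354). Over all genes it called 1.86%, 0.222% and 0.833% there. The exact test at a BCV of 0.2 made the same calls. It also called the P700 gene between 8R6 and control (1.54% of all genes) and HCF109 between *35S::acdS* and control (1.82%). Without the filter, with a block, or without certain libraries, edgeR called HCF109 between 8R6 and *35S::acdS*.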

How the data were processed

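Shoot RNA of 12 libraries, 3 for each of 4 groups, was analysed. Per the paper's methods the authors used Trimmomatic for trimming and STAR for mapping, then counted reads per gene. The deposited values are whole-number counts with a different total in each library, although their table is named for CPM, and were tested as counts. Versions are not given in the sources used here. The authors' later DESeq and edgeR results were not used.

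Genes reaching 0.5 CPM in 3 or more libraries (56932 of 89418) were scaled by TMM and fitted in 1 model of the 4 groups without covariates (edgeR 4.0.16, R 4.3.3, common BCV 0.189), and 6 contrasts were tested by quasi-likelihood. Standard errors are the absolute log2 fold change over the root of F, and 95% intervals use the moderated degrees of freedom. Code was tested on simulated data. Alternatives were RLE or no scaling, no filter, DESeq2 1.42.0, limma 3.58.1 on log2(CPM + 0.5), exact tests at a BCV of 0.2 and of 2 (the latter as printed in the study's methods), single comparisons, a replicate block and leaving out each library.

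The genes and lists were chosen with earlier results of these data known. Named genes are the 5 genes, the 3 closest by correlation (overall and among named genes; the closest are printed) and the 2 further photosystem or chlorophyll genes of the study's tables. Identifiers matched 0 entries of the RefSeq gene table, so no sequences, positions or lengths are given. Deviations of same-numbered libraries from group means, over 18 pairs, correlated at -0.389 to 0.319. They exceeded 0.1 in all 3 pairs only between 8R6 and *35S::acdS* (0.224, 0.196 and 0.223), and so the block is shown there.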

Additional observations from a re-analysis of the deposited data

How the results depend on the processing

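In the comparisons that did not choose the gene, 529 log2 fold changes of the 5 genes under an alternative had an adjusted p, of which 486 kept their direction and their side of the threshold, 24 lost a call, 16 gained one and 3 changed sign. DESeq2 gave no adjusted p for 1 further value. In the comparisons that chose the genes, where no call is made, all 105 values kept their direction. Each moved by less than 1 SD of the log2 level in whichever compared group had the larger SD. The widest move was that of Csa14g037480 between 8R6 and control, from 1.81 to 2.56 without control replicate 3. The control SD used for that gene includes this library. Sign changes occurred only on leaving out 1 library and in differences that were not called: chlorophyllase 1 between 8R6 and control (-0.16 to 0.20 over the libraries left out, negative without 8R6 replicate 3), and Csa14g037480 (-0.28 to 1.03) and Csa06g036870 (-0.16 to 0.40) between *35S::acdS* and control, negative without *35S::acdS* replicate 2. Between 8R6 and *35S::acdS*, 3 of the 5 genes were called, with 0.0509% of all genes, and RLE or no scaling also gave 3. Limma called 2 (0.0299% of all genes), DESeq2 4 (1.86%) and the fit without the filter 4 (0.472%). The exact test called 5 at a BCV of 0.2 (4.84%) and 0 at a BCV of 2. The 6 libraries alone gave 0, and 5 with a replicate block (2.63%). The block in all 12 gave 4 (0.39%), and leaving out 1 library gave 0 to 4. Between 8R6 and *rolD::acdS*, 0 were called, with 0.0755% of all genes. There was 1 call without the filter (0.194% of all genes), 1 by DESeq2 (0.833%) and 2 by the exact test at a BCV of 0.2 (3.08%). Leaving out 1 library gave 0 to 1. The 1 call came without *35S::acdS* replicate 3 or control replicate 2, with 0.129% and 0.277% of all genes. Between the *acdS* lines, 0 were called, and 1 by the exact test at a BCV of 0.2 (2.41% of all genes). The replicate block changed no other count. The cause of these changes was not tested. Over all genes, calls between 8R6 and *35S::acdS* ran from 0 (BCV of 2, the 6 libraries alone) through 29 and 998 (DESeq2) to 2755 (BCV of 0.2). Depth limits Csa01g001010 most, with 2 to 5 counts in each *35S::acdS* library.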
